A study of Mus musculus with 4 samples.

Results

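The RGS genes encode regulators of G-protein signalling, and 8 of them (Rgs1, Rgs2, Rgs3, Rgs10, Rgs14, Rgs16, Rgs18 and Rgs19) were followed here in activated CD8+ T cells cultured with or without spermidine. They were chosen by symbol, from a list drawn up with the spermidine differences of these arrays known, and are 8 of 19505 symbols measured. Each symbol had 1 feature on the array, so the choice of the brightest feature changed nothing. The cells were isolated from the spleen and the lymph nodes of mice of the strain written C57/BL6 and were stimulated for 3 days with beads carrying antibodies to CD3 and CD28 in medium with IL-2. Both groups received this stimulation; 2 control cultures were left untreated and 2 spermidine cultures also had 25 µM spermidine, a polyamine, in the medium. The labels call the arrays of a group biological replicates without naming animals, sexes or ages, so an SD measures the spread between these samples, which may be technical. An SE given here also draws on the variance of all features.

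RGS proteins bind the active, GTP-loaded alpha subunit of a heterotrimeric G protein and speed its GTP hydrolysis, which ends the signal from a G-protein-coupled receptor. In lymphocytes they shorten the response to chemokines and other ligands and so bear on migration. Several are known as genes that T cell stimulation switches on or off, and they differ in the alpha subunits they accept: most members described here act on the Gi and Gq classes, while Rgs2 prefers Gq.

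The measurements are 4 Clariom S Mouse arrays, 2 per group, with 22206 gene features in log2 units. Array medians lay between 5.13 and 5.25 and the number of arrays limits the precision. The level of nonspecific signal was taken from 23 antigenomic features, whose probes match no genomic sequence; their 95th percentile averaged 6.35, and a signal below it may hold little specific signal. The cells carried the defining transcripts of CD8+ T cells: Cd8a ranged from 16.57 to 16.68 and Cd8b1 from 16.66 to 17.19 over the 4 arrays. In limma with Benjamini-Hochberg adjustment 0 features (0%) reached an adjusted p under 0.05 and 1558 (7.02%) had an unadjusted p under 0.05. The difference of every gene named here is therefore given as a value, and none was called.

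Rgs1 and Rgs10, both above background on every array, stood higher in the spermidine cultures by 0.39 and 0.27 log2 units. The signals of Rgs16 and Rgs2 were higher by 1.03 and 1.45, but all 4 signals of Rgs2 and 1 control signal of Rgs16 lay below the background percentile, so these sizes and their order are no measure of the fold. The remaining members differed by less than the spread between arrays of a group. In 4 of the 8 genes (Rgs1, Rgs2, Rgs10 and Rgs16) the spermidine values were both higher than either control value, and in 0 of 8 both lower. Over all gene features the groups were separated upwards in 18.3% and downwards in 18.4%. The median difference of the 8 genes was 0.21, against -0.0067 over all features. The members were listed with these differences known, so nothing is read from their count or their median. Fewer cells of a type and less RNA per cell cannot be told apart in these bulk samples.

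**Figure D1:**
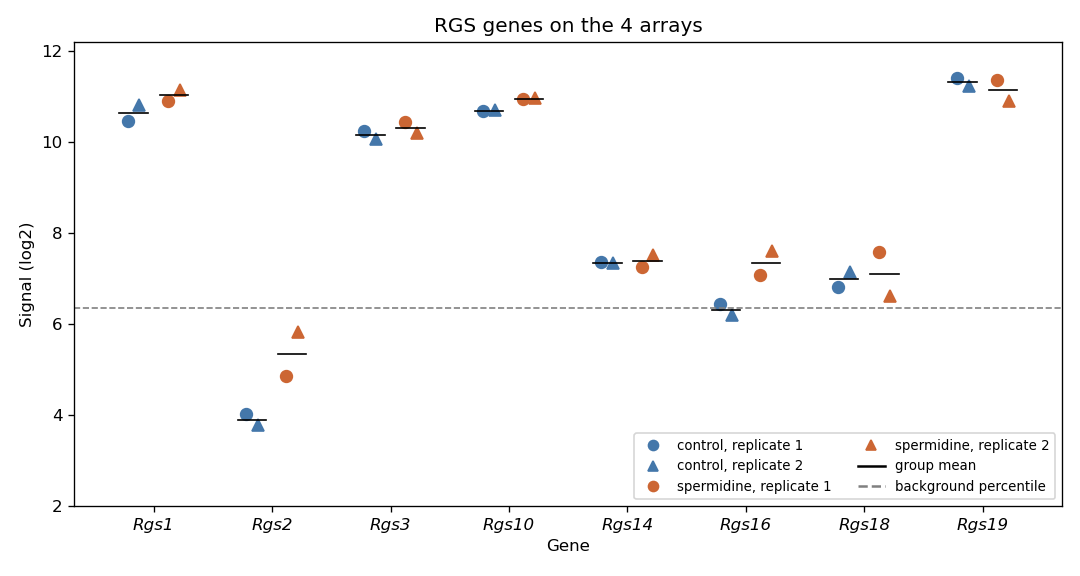
Log2 signal of each of the 8 RGS genes on every array: circles are replicate 1 and triangles replicate 2, blue is control and orange spermidine, black bars are group means, and the dashed line is the background percentile of 6.35. Rgs2 lies under that line on all 4 arrays, Rgs16 crosses it, and the spermidine arrays are clear of the control arrays for Rgs1, Rgs2, Rgs10 and Rgs16.

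The promoters of Rgs2 and Rgs16 are shown because these members had the largest differences. Each is the 250 bases before the annotated start site, from RefSeq on assembly GRCm38.p6, written 5′ to 3′ on the gene's strand. Rgs2 lies at chr1:144004150-144004399 on the minus strand and Rgs16 at chr1:153740103-153740352 on the plus strand. Capitals mark matches, on either strand, to any of 5 short motifs: the cAMP response element core TGACG, AP-1 sites (TGACTCA or TGAGTCA), the GC box GGGCGG, the antioxidant response element core TGACNNNGC and the TATA box TATAAA.
Rgs2: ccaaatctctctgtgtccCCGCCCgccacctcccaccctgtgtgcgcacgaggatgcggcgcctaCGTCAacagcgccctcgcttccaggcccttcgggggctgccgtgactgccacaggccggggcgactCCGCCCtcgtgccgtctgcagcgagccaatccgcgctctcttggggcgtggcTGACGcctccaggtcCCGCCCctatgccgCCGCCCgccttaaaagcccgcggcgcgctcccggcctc
Rgs16: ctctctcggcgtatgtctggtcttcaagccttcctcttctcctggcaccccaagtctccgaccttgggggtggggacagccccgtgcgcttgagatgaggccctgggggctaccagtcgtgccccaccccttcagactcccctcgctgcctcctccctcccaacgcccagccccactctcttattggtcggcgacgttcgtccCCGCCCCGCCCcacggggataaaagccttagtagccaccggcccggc
The antioxidant core begins with the same letters as the cAMP core, so the 2 can overlap. Rgs2 held 2 matches to TGACG, a sequence read by factors downstream of cAMP, and Rgs16 held 0; 17.8% of 32851 promoter windows of this length have at least 1. Both held GC boxes, 4 in Rgs2 and 2 overlapping ones in Rgs16, as did 32.7% of all windows. Neither matched an AP-1 site (4.46% of windows), the antioxidant core (10.2%) or TATAAA (12.4%). The G and C content was 72.4% for Rgs2 and 66.4% for Rgs16, against a median of 52.4%. The letter pair CG occurred 30 times in Rgs2 and 17 times in Rgs16, against a median of 6. TGACG and GGGCGG both contain CG, so the shares over all windows are no like background for these windows. A match is a description of letters and not a bound site. Of the 8 genes, 5 had a window in the table; Rgs1, Rgs14 and Rgs18 had none. In the windows of Rgs3, Rgs10 and Rgs19 TGACG had 0 matches.

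Rgs16, a small regulator of the R4 subfamily that acts on Gi and Gq and is induced in stimulated lymphocytes, had control signals of 6.44 and 6.20 and spermidine signals of 7.08 and 7.62. Every spermidine array was above every control array, and the difference of 1.03 ± 0.26 (SE), from 6.32 ± 0.17 (SD, n = 2) to 7.35 ± 0.38 (SD, n = 2), was 1.93 times the larger of the 2 gaps between replicates. Only 1 control array exceeded the background percentile, so the 2.04-fold ratio of signals is not a measure of the fold in transcript. Leaving out any 1 array gave between 0.76 and 1.30. Among all gene features 89 had a difference at least as high, or 0.401%. Rgs16 was listed with its difference known, so nothing is read from this rank.

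Rgs2, the R4 member that prefers Gq and is known from stimulated T cells and vascular muscle, read 4.03 and 3.77 in control and 4.86 and 5.84 in spermidine cultures. The groups did not overlap, and the difference was 1.45 ± 0.33 (SE), but all 4 signals lay below the background percentile. The spermidine arrays were 0.97 apart, and without spermidine replicate 2 the difference was 0.96. Of 12539 features that stayed below the percentile on all arrays, 4 had a difference as high as that of Rgs2, itself included, and 27 reached 1 log2 unit. Rgs2 was listed with its difference known, so nothing is read from its place among these features. The antigenomic features themselves differed between groups by -0.23 to 0.14. The change in signal for Rgs2 is no measure of its fold, and whether that signal is specific was not tested.

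Rgs1, an R4 member that dampens chemokine receptor signals and is abundant in B cells and in tissue-resident T cells, stood well above background. Its control signals were 10.47 and 10.81 and its spermidine signals 10.91 and 11.15. The spermidine arrays were both higher, but only just: the lower spermidine value exceeded the higher control value by less than the gap of 0.34 between the control arrays. The difference was 0.39 ± 0.24 (SE), a ratio of 1.31, and it ranged from 0.22 without control replicate 1 to 0.57 without control replicate 2.

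Rgs3 and Rgs18 complete the R4 genes among the 8. Rgs3, whose long forms also bind beta-gamma subunits, read 10.26 and 10.07 in control and 10.44 and 10.21 in spermidine cultures. The groups overlapped and the difference was 0.16 ± 0.23 (SE). Rgs18, best known from platelets and the myeloid lineage, read 6.83 and 7.15 in control and 7.59 and 6.62 in spermidine cultures. Its spermidine arrays held both the highest and the lowest of the 4 values. The difference of 0.12 ± 0.34 (SE) became -0.37 without spermidine replicate 1, 0.60 without spermidine replicate 2 and -0.04 without control replicate 1.

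The R12 members Rgs10 and Rgs14 act on Gi. Rgs10, a short protein that is little more than an RGS domain, had the tightest replicates: 10.69 and 10.70 in control, 10.95 and 10.98 in spermidine cultures. The groups did not overlap, and the difference of 0.27 ± 0.22 (SE), a ratio of 1.20, was 10.9 times the larger of the 2 gaps between replicates. The SE exceeds that gap because limma draws each gene's variance towards that of all features. Without any 1 array the difference ran from 0.26 to 0.28. Rgs14, which also carries a GoLoco motif that holds inactive Gi alpha and domains that bind small GTPases, read 7.37 and 7.34 in control and 7.25 and 7.52 in spermidine cultures. The control values lay between the spermidine values, the difference was 0.03 ± 0.23 (SE), and it was -0.10 without spermidine replicate 2.

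Rgs19, an RZ member also called GAIP, was the 1 member with a lower mean in the spermidine cultures. It read 11.41 and 11.23 in control and 11.38 and 10.92 in spermidine cultures. The groups overlapped, the difference was -0.17 ± 0.25 (SE), and without spermidine replicate 2 it was 0.05. The signs of all 8 differences were the same after a further quantile normalization, median centring and cyclic loess.

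The rest of the family was followed by name: the other numbered Rgs genes, the binding partners of the R7 subfamily and proteins that carry an RGS-like domain. Of 26 such genes measured, 11 were higher and 15 lower, with a median difference of -0.03. The groups were separated upwards in 6 and downwards in 5, against 18.3% and 18.4% of all features. In limma 0 of 26 passed in either direction and 5 had an unadjusted p under 0.05, against 7.02% of all features. Of these 5, Rgs6 and Rgs21 were below background on all arrays. Rgs12, the large R12 member with a scaffold of further domains, was the only numbered gene of the 26 with a group mean above background. It read 7.37 and 7.73 in control and 8.06 and 9.19 in spermidine cultures, a difference of 1.08 ± 0.37 (SE). Its groups did not overlap, but 1 spermidine array lay far above the other, and without it (spermidine replicate 2) the difference was 0.51. The unadjusted p of Rgs12 was among the 5, and its adjusted p in limma was 0.639.

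Beyond the numbered genes, the receptor kinase Grk5, which phosphorylates active receptors, was lower: 6.57 and 6.38 in control and 5.70 and 5.86 in spermidine cultures, -0.69 ± 0.23 (SE). Only the control values exceeded background. Arhgef12, a guanine nucleotide exchange factor that acts downstream of G12 and G13, was at 0.60 ± 0.24 (SE), and the sorting nexin Snx13 at 0.46 ± 0.23 (SE), both with separated groups. Of the whole set of 21 numbered Rgs genes, 8 had a group mean above background, and these were the members other than Rgs2, and Rgs12. The R7 genes Rgs6, Rgs7, Rgs9 and Rgs11, known from neurons and the retina, were below background in both groups. In this subfamily 4 of 4 differences were negative, with a median of -0.21, and Rgs6 had the most negative value (-1.13), from signals of 5.44 and 4.93 to 3.89 and 4.21. The R4 subfamily had 8 of 10 positive differences with a median of 0.14, the R12 subfamily 3 of 3 with 0.27, and the RZ subfamily 1 of 3 with -0.10. Of these genes 5 in R4, 2 in R12 and 1 in RZ are members listed with their differences known, and 6 of the 10 R4 genes were below background in both groups, so nothing is read from these counts.

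**Figure D2:**
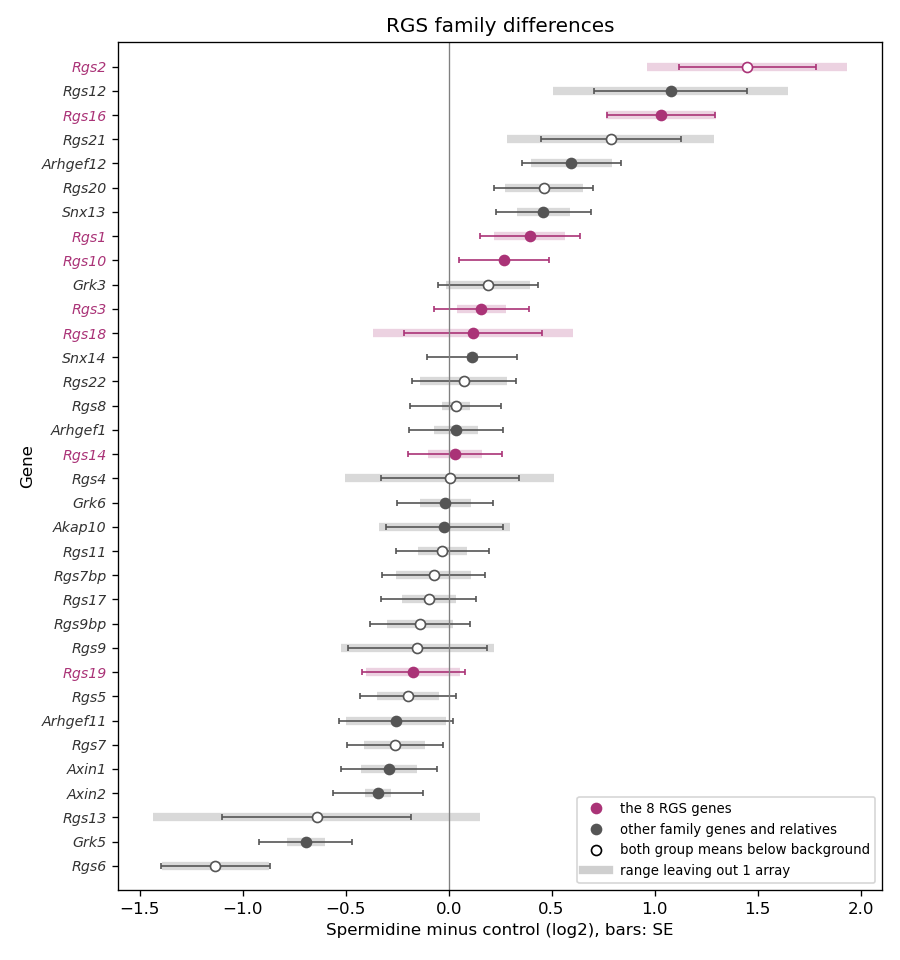
Spermidine minus control difference (log2, point) with its SE (thin bar) for the 8 RGS genes in purple and 26 other family genes and relatives in grey; thick pale bars span the values with 1 array left out, and open points have both group means below background. Rgs2, Rgs12 and Rgs16 have the highest differences of the 34 genes and Rgs6 the lowest, and the pale bars of Rgs14, Rgs18 and Rgs19 cross 0.

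The substrates of RGS proteins are the G alpha subunits. Of 16 genes for them, 11 were higher and 5 lower (median 0.10). The groups were separated upwards in 3 and downwards in 3, against 18.3% and 18.4% of all features. Gnai2, the main Gi subunit of lymphocytes, read 16.13 and 16.21 in control and 16.10 and 15.86 in spermidine cultures, a difference of -0.19 ± 0.23 (SE). Gnai3, also of the Gi class, was at -0.49 ± 0.24 (SE), Gna11 of the Gq class at 0.19 ± 0.22 (SE) and Gnas, which stimulates adenylyl cyclase, at 0.18 ± 0.22 (SE). Gnai2 and Gnai3, the Gi genes above background, thus had lower values with separated groups. For Gnai2 the groups were barely apart, and its difference was -0.06 after a further quantile normalization, against -0.42 for Gnai3. The Gq class went both ways, as Gnaq was at -0.13 with overlapping groups. No class pattern is read from so few genes. The 16 genes of beta and gamma subunits had a median of -0.11, 5 higher and 11 lower, with Gng5 at -0.41 and Gnb1 at -0.20. After a further quantile normalization Gng5 was at -0.36 and Gnb1 at -0.09. Separation was upwards in 1 of the 16 and downwards in 2. Over the 6 beta and gamma genes above background the median was -0.26, with 0 higher and 6 lower. Over all 16 without spermidine replicate 2 it was -0.011. In limma 0 of the 16 alpha genes and 0 of the 16 beta and gamma genes passed, and 0 of either had an unadjusted p under 0.05.

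Other genes were measured as cofactors, most of them for proteins that load, fold or switch off the pathway. The list also held the receptor-like gene Gpr107, which is not counted among these. Of 10 genes, 3 were higher and 7 lower (median -0.15). Gpr107 stood at 8.30 and 8.14 in control and 9.20 and 9.39 in spermidine cultures, 1.07 ± 0.23 (SE), with its groups apart and an adjusted p of 0.637 in limma. The chaperone and exchange factor Ric8b was at -0.48, the arrestin Arrb1 at -0.47 and the beta-gamma folding gene Pdcl3 at -0.31, with separated groups. In limma 0 of the 10 passed and 1 had an unadjusted p under 0.05, against 7.02% of all features.

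Of the receptors whose signals RGS proteins shorten, 28 couple mainly to Gi. Of these 17 were higher and 11 lower, with a median of 0.03. The groups were separated upwards in 5 (17.9%) and downwards in 2 (7.14%), against 18.3% and 18.4% of all features. The chemokine receptor Ccr4 was lower, at 9.49 and 8.96 in control and 8.87 and 8.20 in spermidine cultures (-0.68 ± 0.31, SE; -0.35 without spermidine replicate 2). Cxcr6 was at 0.44 ± 0.23 (SE), the oxysterol receptor Gpr183 at 0.36 and the gut-homing receptor Ccr9 at 0.31. Receptors that use Gs, Gq or G12 and G13 numbered 13, with 4 higher, 9 lower and a median of -0.16. Separation was upwards in 3 (23.1%) and downwards in 5 (38.5%) of these, against the same shares of all features. The prostaglandin E2 receptor Ptger2, which raises cAMP through Gs, read 6.80 and 6.59 in control and 7.64 and 7.55 in spermidine cultures, 0.90 ± 0.23 (SE), and between 0.80 and 1.01 without any 1 array. Ptger4, with the same ligand, was at 0.25, P2ry10 at -0.29 and Lpar6 at -0.27. In limma 0 of the 28 and 0 of the 13 passed. At an unadjusted p under 0.05 there were 0 and 1, against 7.02% of all features. The 1 was Ptger2 (adjusted p = 0.637 in limma).

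Downstream, the 22 genes of adenylyl cyclase, protein kinase A and the phosphodiesterases had a median difference of 0.0079, with 13 higher and 9 lower. The groups were separated upwards in 1 (4.54%) and downwards in 6 (27.3%), against 18.3% and 18.4% of all features. Over the 12 genes above background the sign of the median turned, to -0.12, with 5 higher and 7 lower. The kinase subunits Prkar2a (-0.48) and Prkaca (-0.38), the cyclase Adcy3 (-0.33) and the cAMP-responsive factor Creb1 (-0.21) had the largest statistics among those with separated groups and a group mean above background. The 18 effectors of Gq, G12, G13 and beta-gamma had 9 higher and 9 lower and a median of -0.01, which was 0.089 after a further quantile normalization. Separation was upwards in 4 (22.2%) and downwards in 2 (11.1%) of these effectors. Among them Dock2, the Rac activator that drives lymphocyte migration, read 14.64 and 14.73 in control and 15.13 and 15.17 in spermidine cultures (0.47 ± 0.22, SE). The calcium channel Itpr2 was at 0.47, the kinase Prkcb at -0.41 and the GTPase Rac2 at -0.17. After a further quantile normalization Dock2 was at 0.56, Itpr2 at 0.52, Prkcb at -0.34 and Rac2 at -0.045. In limma 0 of the 22 and 0 of the 18 passed, and 0 of either had an unadjusted p under 0.05.

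Rgs1, Rgs2 and Rgs16 are known as genes that T cell stimulation induces, so a list of early activation genes was set beside them. Of 26 genes, 21 were higher and 5 lower (median 0.30). The groups were separated upwards in 8 (30.8%) and downwards in 1 (3.85%), against 18.3% and 18.4% of all features. Junb was at 1.02 ± 0.25 (SE), Ier5 at 0.62, Nfkbia at 0.59 and Dusp5 at 0.63. In the other direction Dusp6, a phosphatase of the ERK kinases, was at -0.34 with separated groups, and Egr1 was at -0.69 and Irf4 at -0.19. Cd69 (0.17) and Myc (0.12), which T cell stimulation also induces, had overlapping groups; these 5 genes were chosen after their values were seen. The median was 0.01 without control replicate 1 and 0.47 without control replicate 2. In limma 0 of 26 passed and 5 had an unadjusted p under 0.05, against 7.02% of all features. This list was chosen with earlier results of these data known, so nothing is read from its counts, shares or median.

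**Figure D3:**
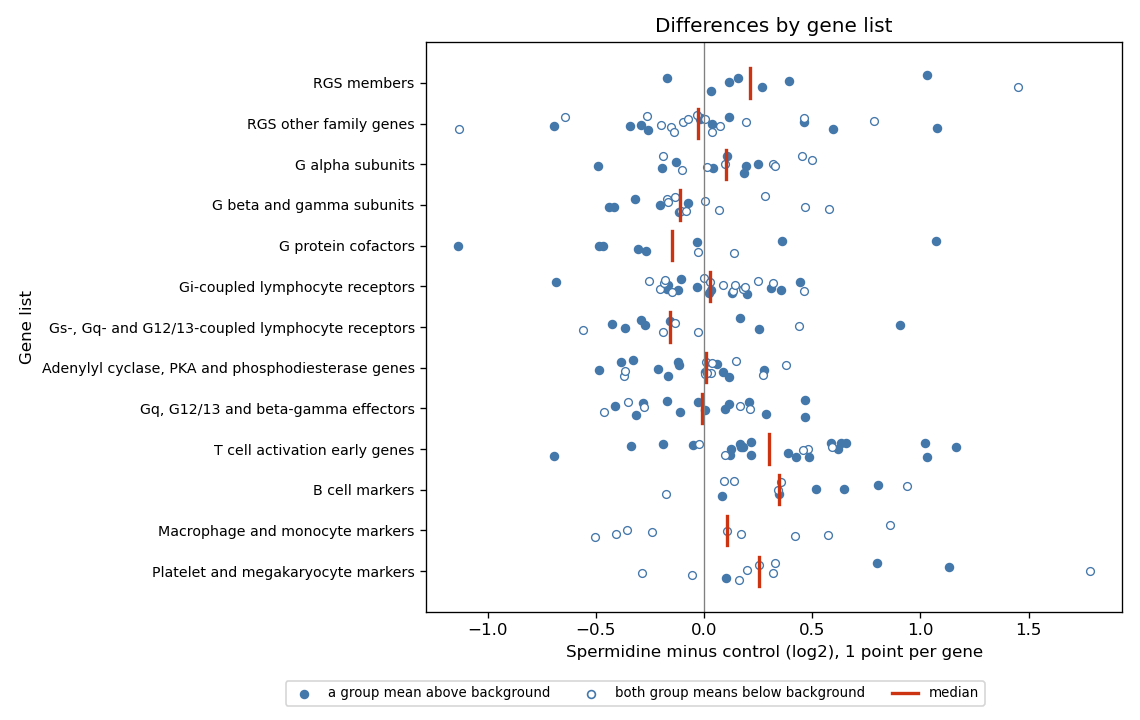
Spermidine minus control difference (log2) of each gene in 13 lists, with filled points for genes with a group mean above background, open points for the others and a red line at the list's median. The medians run from -0.16 for receptors using Gs, Gq or G12 and G13 to 0.35 for B cell markers. The median is 0.21 for the 8 RGS genes, which were listed with their differences known. Single genes spread widely around each median.

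Rgs1 is also abundant in B cells, and Rgs2 and Rgs18 in myeloid cells and platelets, so the markers of those cells were read on the same arrays. Of 11 B cell markers 10 were higher with spermidine (median 0.35), 5 were separated upwards (45.5%) and 0 downwards, and their summed signal was 9.79 to 9.92 (log2) in control and 10.02 to 10.53 in spermidine cultures; 6 of 11 stayed below background on all arrays. The differences were 0.81 for Cd79a, 0.52 for Ebf1 and 0.35 for Cd79b, while the defining factor Pax5 had signals of 3.98 to 4.28. Of 9 macrophage and monocyte markers 9 were below background on all arrays, among them Csf1r with signals of 2.22 to 3.13. Of the 9, 4 were separated upwards and 2 downwards. Lyz2 was at 0.86 and Spi1 at 0.42, both separated upwards, and Csf1r at -0.35 with overlapping groups. The summed signal of the list was 7.65 to 7.69 in control and 7.78 in both spermidine cultures. Of 11 platelet markers 9 were higher (median 0.26), 6 were separated upwards (54.5%) and 1 downwards, and 8 stayed below background on all arrays. Over all gene features the shares separated were 18.3% upwards and 18.4% downwards. Most markers of the B cell, macrophage and platelet lists lay below background, so nothing is read from these counts. The 5 B cell markers with a group mean above background had a median of 0.52, with 5 higher and 0 lower. For the 3 such platelet markers it was 0.80, with 3 higher and 0 lower. All features above background had a median of -0.0321. Vwf was at 1.13 with separated groups and 1 of 4 arrays above background, and Ppbp, below background on all arrays, at 1.78. The summed signal of the platelet markers was 11.63 to 12.18 in control and 12.64 to 12.70 in spermidine cultures. It came mostly from the integrin Itgb3 (difference 0.80), which other cells share. Pf4 had signals of 4.66 to 5.55. The part of these cells in the values of Rgs1, Rgs2 and Rgs18 was not tested.

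Markers of other cell types were read the same way. The 8 neutrophil markers were below background on all arrays, with summed signals of 6.93 to 7.15 in control and 7.04 to 7.19 in spermidine cultures. The 8 dendritic cell markers summed to 12.69 to 12.84 in control and 12.29 to 12.74 in spermidine cultures, with 6 below background. Of those above it, Ccr9, also a lymphocyte receptor, was at 7.55 to 7.95. The sum came mostly from another gene and is not read as dendritic cell signal. The 5 natural killer cell markers summed to 12.51 to 13.60 in control and 11.89 to 13.25 in spermidine cultures, mostly through Eomes, which CD8+ T cells also express. The 3 CD4+ T cell markers summed to 7.85 to 7.94 in control and 8.07 to 8.37 in spermidine cultures, where Zbtb7b was at 0.76 and Cd4 itself overlapped. Of the 12 CD8+ T cell markers, all above background, 8 were lower, with a median of -0.13. The groups were separated downwards in 6 of 12 and upwards in 1 of 12, against 18.4% and 18.3% of all features.

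The genes with the most similar pattern over the 4 arrays were found by the Euclidean distance between log2 signals after subtracting each gene's mean, among 8139 named genes whose mean over the 4 arrays was above background. A gene can pass that filter through 1 group alone. With 4 arrays many genes lie close to any pattern, and the distance says nothing of shared function. The nearest to Rgs2 were the chemokine Ccl3 (distance 0.20; 9.35 and 9.03 in control, 10.12 and 10.89 in spermidine cultures) and Ttc39c (0.27). The nearest to Rgs16 were the stress-induced gene Gadd45b (0.056; 6.25 and 6.06 in control, 6.92 and 7.41 in spermidine cultures), whose control signals lay below background, and the inhibitory receptor Lilrb4a (0.15). Within a distance of 0.2 there were 0 genes for Rgs2 and 4 for Rgs16. The nearest to Rgs18 were Phtf2 (0.13) and Dpy19l4 (0.14), which were also highest in 1 spermidine array and lowest in the other.

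The other members had patterns that many genes share. Rgs1 was nearest to Fam71b (0.016) and to the Arf regulator Asap1 (0.039), with 186 genes within 0.2. Rgs3 was nearest to Golga7 (0.011) and Zfp800 (0.024), with 650, and Rgs10 to the potassium channel Kcnk6 (0.0086) and the kinase Tlk2 (0.019), with 598. Rgs14 was nearest to Tut1 (0.029) and Ercc6l2 (0.032), with 568, and Rgs19 to the adiponectin receptor Adipor2 (0.013) and the mitochondrial channel Vdac1 (0.021), with 662.

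**Figure D4:**
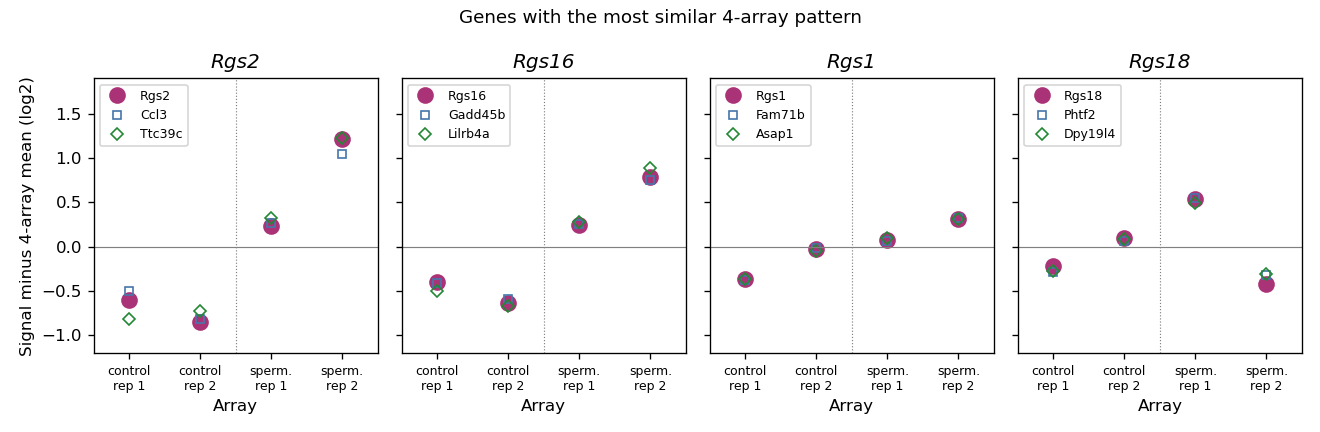
Log2 signal minus the gene's mean over the 4 arrays for Rgs2, Rgs16, Rgs1 and Rgs18 (large circles) and, in each panel, the 2 genes nearest in pattern (open squares and diamonds); the dotted line parts control from spermidine arrays. Rgs2 and Rgs16 are highest on spermidine replicate 2, as are their nearest genes, while Rgs18 is highest on spermidine replicate 1 and lowest on spermidine replicate 2.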

How the data were processed

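Gene expression was measured on 4 Clariom S Mouse arrays, each from 250 ng of total RNA. The authors deposited a log2 signal for each feature. The submitters' processing notes name Affymetrix Expression Console and RMA without versions, and the log2 base was inferred from the values. RMA corrects background, normalizes by quantiles and summarises probes, and compresses differences of dim features. The annotation's build was not given in the sources used here.

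Of 28846 features, 6640 control features were left out and 22206 gene features kept; 19572 had 1 symbol, 0 several and 2634 none. All 8 members had the same symbol in RefSeq GRCm38.p6 by Entrez identifier. Spermidine was compared with control by limma 3.58.1 under R 4.3.3 (functions lmFit and eBayes, two-sided, Benjamini-Hochberg over all gene features, threshold 0.05); the test was checked on simulated data. An SE is the moderated standard error of that fit. The members and lists were chosen with earlier results of these data known, so members have no test and lists have counts and medians only. Named genes of each list were the up to 4 with the largest statistics among those with separated groups and a group mean above background, other genes being named beside a result; for each member the 2 nearest genes in pattern were named. Names that matched no feature were not analysed here. Alternatives were the prior variance, array weights, other normalizations, filters on dim features, 1 feature per symbol, a replicate block and leaving out each array.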

Additional observations from a re-analysis of the deposited data

How the results depend on the processing

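The precision is limited by 2 arrays per group, and signals near or below 6.35, as for Rgs2 and the controls of Rgs16, carry little information on fold. Features passing the adjusted threshold numbered 0 with robust prior, array weights, quantile normalization, the lower-quartile filter and 1 feature per symbol, and 1 with an intensity trend, median centring, cyclic loess or the filter at the median. With the replicate number as a block 1 feature passed; deviations of same-numbered arrays correlated at 0.21, but 2 pairs do not show a pairing, and in this balanced design the block leaves every member's difference as it is. Leaving out 1 array in turn, 0 features passed in each case.

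The differences of the members other than Rgs10 moved by less than the spread between replicates under array weights, the 3 normalizations and the block. Rgs10 stood at 0.30 after quantile normalization, 0.25 after median centring and 0.31 after cyclic loess. With only genes above background the median was -0.26 for beta and gamma subunits, -0.29 for cofactors, -0.21 for receptors using Gs, Gq or G12 and G13, -0.12 for the adenylyl cyclase list and 0.0059 for the effectors of Gq, G12, G13 and beta-gamma. The effector median was 0.089 after quantile normalization, -0.025 after median centring and 0.044 after cyclic loess, and the receptor median -0.13 after quantile normalization.

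Leaving out 1 array in turn, Rgs1 ranged from 0.22 to 0.57, Rgs2 from 0.96 to 1.94, Rgs3 from 0.04 to 0.28, Rgs10 from 0.26 to 0.28, Rgs14 from -0.10 to 0.16, Rgs16 from 0.76 to 1.30, Rgs18 from -0.37 to 0.60 and Rgs19 from -0.40 to 0.05. List medians ranged from -0.03 to -0.0030 for other family genes, -0.021 to 0.18 for alpha subunits, -0.19 to -0.011 for beta and gamma subunits, -0.30 to -0.12 for cofactors, -0.05 to 0.08 for Gi-coupled receptors, -0.21 to -0.14 for the other receptors, -0.13 to 0.016 for the adenylyl cyclase list, -0.0071 to 0.083 for the effectors and 0.01 to 0.47 for early activation genes. The number of members with separated groups, counted without 1 array after the data were seen, was 4 to 6 upwards and 0 to 2 downwards; with fewer arrays separation is easier by construction.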

Other observations

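Several RGS genes stand side by side on mouse chromosome 1. In the order of protein-coding genes of the RefSeq table (GRCm38.p6), Rgs2, Rgs13, Rgs1, Rgs21 and Rgs18 follow each other between Uchl5 and Brinp3. The members of this row had unlike differences: 1.45 for Rgs2, 0.39 for Rgs1 and 0.12 for Rgs18. Between them, Rgs13, a B cell regulator, read 3.52 and 5.11 in control and 3.83 and 3.53 in spermidine cultures, and its difference of -0.64 came from 1 control array. Rgs21 was at 2.24 and 2.52 in control and 2.66 and 3.67 in spermidine cultures, below background throughout. The flanking gene Uchl5, a deubiquitinase of the proteasome, read 13.05 and 12.81 in control and 12.41 and 11.92 in spermidine cultures (-0.76), while Brinp3 was at -0.02. Rgs16 has Rgs8 as its neighbour, which was at 5.95 and 6.08 in control and 6.01 and 6.09 in spermidine cultures, a difference of 0.04. These neighbours were looked up after the values were seen.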
